A study of Mus musculus with 18 samples.

Results

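Hearts of mice carrying the transgene for TN-XXL were compared with hearts of wild type littermates. Of the 18 arrays of the series, the 6 hybridised with heart muscle RNA were used: the 3 whose titles give +/+ heart form the transgenic group, and the 3 whose titles give wt heart form the wild type group. TN-XXL reports calcium by fluorescence: it is a protein made in the animal's own cells, with a troponin C domain placed between cyan and yellow fluorescent proteins, and calcium binding alters the energy passed from one to the other. Total RNA was labelled by the Affymetrix whole transcript procedure and hybridised to 1 array per sample. Both groups are C57BL/6, and the labels give no treatment for either. Age, sex, the promoter that drives the transgene, the number of founder lines, the time of day at which hearts were taken and whether each array came from its own animal are not stated in the labels, so p-values measure the spread between these arrays, which may be technical. No probe set was read as the transgene. The remaining arrays, from skeletal muscle and hippocampus of the same genotypes, are used only to set the heart differences beside those of other tissues.

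The heart is a muscle whose beat depends on calcium released in each cycle and bound by cardiac troponin C. Heart muscle cells also hold their own circadian clock. In it BMAL1 (gene Arntl) pairs with CLOCK or NPAS2 and switches on genes whose products, among them the PER and CRY proteins, shut that pair off again. REV-ERB and ROR nuclear receptors act in opposite directions on Arntl, and clock-driven bZIP factors pass the rhythm on to genes of metabolism, ion channels and contraction. The levels of these transcripts swing over the day, so a level depends on when the tissue was taken.

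Values are log2 signals per probe set after RMA, so a difference of 1 is a change by a factor of 2, and differences are transgenic minus wild type with the standard error (SE) of the fit and n = 3 arrays per group. Medians of the 6 arrays were 2.61 to 2.63, and arrays correlated at 0.985 to 0.986 within a genotype and 0.981 to 0.984 between genotypes. The median of all probe set means over the heart arrays, 2.58, is called the median level below. The labelled tissue was borne out by its markers: the cardiac actin gene Actc1 averaged 12.07 ± 0.08 in transgenic and 12.05 ± 0.06 in wild type hearts (SD), and the cardiac troponin genes Tnnt2 and Tnni3 differed by 0.02 and 0.05. Of 4 sex-linked genes, 0 had groups that stood apart.

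A probe set is said to have risen or fallen where limma's moderated test gave a p under 0.05 after Benjamini-Hochberg adjustment over 35382 probe sets. Of these, 4252 had an unadjusted p under 0.05. The threshold was met by 36 probe sets, 0.102% of those tested, with 21 higher (0.0594%) and 15 lower (0.0424%) in transgenic hearts. A single gene symbol belonged to 31 of them, 19 higher (0.101% of 18781 genes) and 12 lower (0.0639%), with fold changes from 1.85 to 6.43. This number depended on the setting: with any 1 of the 6 arrays left out, 1 to 2 probe sets passed, and testing only the 21153 probe sets with 1 symbol gave 521 (2.46%), with 1.15% of genes higher and 1.49% lower. The directions of the 31 genes held in each of these fits, and the sizes are given below with their spread. Taken over genes with 1 probe set each, all 3 transgenic arrays lay above all 3 wild type arrays for 10.7% of 18781 genes and below them for 11.5% (9.19% and 9.35% of all probe sets), and the median difference was −0.001. These shares are the background for the counts of genes whose groups stood apart. For counts before adjustment the background is the 4252 of 35382 probe sets above. In the fit to the 21153 probe sets with 1 symbol, 3378 had an unadjusted p under 0.05. A count of list members near these shares is not read as a result about its list.

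**Figure D1:**
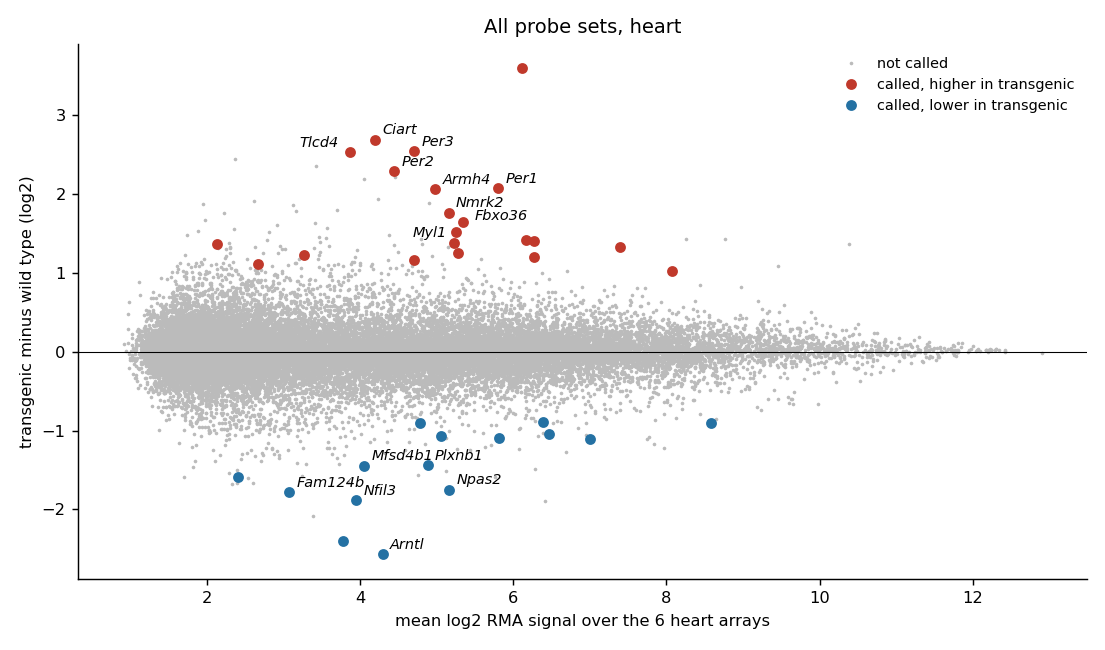
Each point is 1 of 35382 probe sets, with the mean log2 RMA signal over the 6 heart arrays on the x axis and the transgenic minus wild type difference (log2) on the y axis. The 21 probe sets that rose are red and the 15 that fell are blue, and names are given to the 15 with 1 symbol and the widest differences. The highest red point carries several symbols and is not named.

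Circadian clock genes made up 12 of the 31 named genes. The 3 period genes, Ciart and Nr1d2 rose, and so did the outputs Tef, Hlf, Usp2 and Tspan4, while the activator genes Arntl and Npas2 and the output Nfil3 fell. Over the 27 measured genes of the activator, repressor and output lists 9 rose, 3 fell and 15 did not pass. Groups stood apart for 22 of the 27, 15 of them higher and 7 lower in transgenic hearts, beside the background of 10.7% and 11.5%. Nr1d1 and Dbp were not measured by a probe set with a single symbol.

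The promoter windows below are shown because they carry the sequence elements through which the clock proteins act and belong to genes that rose (Ciart, Per3 and Coq10b) or fell (Arntl and Nfil3). Each runs from 250 bases before to 50 bases after a RefSeq start site (build GRCm38.p6), 5′ to 3′ on the strand of the gene, in lower case with element matches in capitals. The elements searched, on both strands, were the E-box CACGTG bound by BMAL1 and its partners, the D-box (TTATGTAA or TTACGTAA) bound by TEF, HLF and NFIL3, the element of the ROR and REV-ERB receptors (TAGGTCA or TGGGTCA) and the cAMP response element (TGACGTCA), through which CREB acts and which no printed window holds. The windows lie at chr3:95882179-95882478 (minus strand), chr4:151044616-151044915 (minus strand), chr1:55052520-55052819 (plus strand), chr7:113207261-113207560 (plus strand, 1 of 2 windows of that gene) and chr13:52980990-52981289 (minus strand).
Ciart: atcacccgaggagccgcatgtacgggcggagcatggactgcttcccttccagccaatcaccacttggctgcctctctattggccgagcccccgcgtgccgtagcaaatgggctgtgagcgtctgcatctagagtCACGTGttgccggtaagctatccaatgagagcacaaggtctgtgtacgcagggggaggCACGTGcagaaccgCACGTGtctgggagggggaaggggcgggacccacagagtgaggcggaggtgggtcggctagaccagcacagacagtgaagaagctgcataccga
Per3: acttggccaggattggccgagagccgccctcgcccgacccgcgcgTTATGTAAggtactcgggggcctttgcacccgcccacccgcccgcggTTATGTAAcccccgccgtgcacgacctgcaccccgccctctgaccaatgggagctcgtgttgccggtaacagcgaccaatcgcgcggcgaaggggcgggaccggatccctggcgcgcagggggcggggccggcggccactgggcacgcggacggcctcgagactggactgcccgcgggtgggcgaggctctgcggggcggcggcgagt
Coq10b: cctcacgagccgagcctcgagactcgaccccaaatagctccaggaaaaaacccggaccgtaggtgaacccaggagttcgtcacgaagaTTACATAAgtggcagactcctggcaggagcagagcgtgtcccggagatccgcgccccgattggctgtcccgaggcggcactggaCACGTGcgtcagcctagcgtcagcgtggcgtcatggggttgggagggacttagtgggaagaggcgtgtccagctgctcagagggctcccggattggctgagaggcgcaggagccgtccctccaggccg
Arntl: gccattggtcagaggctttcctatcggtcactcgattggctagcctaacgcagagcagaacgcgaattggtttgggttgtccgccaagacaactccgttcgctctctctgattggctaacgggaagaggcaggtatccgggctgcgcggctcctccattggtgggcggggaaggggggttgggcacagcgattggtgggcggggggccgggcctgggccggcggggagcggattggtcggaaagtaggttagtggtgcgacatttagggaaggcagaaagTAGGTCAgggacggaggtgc
Nfil3: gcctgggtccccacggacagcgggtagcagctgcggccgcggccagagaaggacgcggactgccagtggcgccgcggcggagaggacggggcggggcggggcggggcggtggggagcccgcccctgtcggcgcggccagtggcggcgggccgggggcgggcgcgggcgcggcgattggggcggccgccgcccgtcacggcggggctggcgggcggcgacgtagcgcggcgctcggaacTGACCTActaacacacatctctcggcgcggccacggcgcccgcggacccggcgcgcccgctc

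In these windows the E-boxes of Ciart begin 116, 58 and 44 bases before the start site and that of Coq10b 78 bases before it. The D-boxes of Per3 begin 205 and 158 bases before the start, and Coq10b holds a D-box on the other strand 162 bases before its own. The receptor element of Arntl lies 30 bases after the start, and Nfil3 carries the same element on the other strand 12 bases before it. No matches overlapped in the windows printed. Of the 19 genes that rose, 18 had a window: an E-box was present in 7 of them (38.9%, against 8.09% of all 27025 genes with a window), a D-box in 2 (11.1%, against 1.23%) and a receptor element in 0 (against 7.35%). Of the 12 genes that fell, an E-box was present in 1 (8.33%), a D-box in 0 and a receptor element in 4 (33.3%). A cAMP response element was present in 1 gene that rose (Hlf, 5.56%, against 2.03% of all genes) and in 0 that fell. Besides Ciart and Coq10b, the rising genes with an E-box were Per1, Rhobtb1, Tef, Tlcd4 and Tspan4, and besides Arntl and Nfil3 the falling genes with a receptor element were D2hgdh and Fam124b. Among windows of all genes, 7.15% held an E-box, 1.06% a D-box, 6.45% a receptor element and 1.79% a cAMP response element. A match describes these letters in this window and is no evidence of binding in these hearts.

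Among the activators, Arntl stood at 3.25, 3.09 and 2.69 in transgenic hearts, against 5.54, 5.62 and 5.58 in wild type hearts. It was 5.95-fold lower (−2.57 ± 0.15, adjusted p = 0.015), and the difference ranged from −2.69 to −2.41 as each array was left out. Npas2, which encodes a partner of BMAL1, read 4.56, 4.27 and 4.04 in transgenic hearts, against 6.02, 6.00 and 6.10 in wild type hearts (−1.75 ± 0.14, adjusted p = 0.0295). Both genes showed a gap between the groups several times wider than the range within either. Clock, the other partner, read 6.58, 6.55 and 6.36 in transgenic hearts, against 7.09, 7.01 and 7.16 in wild type hearts, and this smaller difference did not pass (−0.59 ± 0.10, adjusted p = 0.1). Arntl2, the BMAL1 paralogue, differed by −0.34 ± 0.14 and did not pass (adjusted p = 0.412). Rora, a receptor that activates Arntl, averaged 6.64 ± 0.09 in transgenic and 6.31 ± 0.07 in wild type hearts (difference 0.33 ± 0.09, adjusted p = 0.242), whereas Rorb lay under the median level with a difference of 0.04 ± 0.10. Of the 6 measured genes of this group 2 fell and 4 did not pass, with a median difference of −0.47.

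The repressor genes lay on the other side. Ciart, whose product CHRONO binds BMAL1 and represses it, stood at 5.17, 5.50 and 5.95 in transgenic hearts, against 2.41, 3.27 and 2.88 in wild type hearts, the widest difference among the named genes (6.43-fold, 2.69 ± 0.27, adjusted p = 0.0428). Its second probe set differed by 2.19 in the same direction (adjusted p = 0.0662). The wild type values of Ciart lie near the median level, so its exact fold is uncertain. Per3 read 5.91, 5.98 and 6.04 in transgenic hearts, against 3.58, 3.70 and 3.03 in wild type hearts (2.54 ± 0.18, adjusted p = 0.023). Per2 read 5.33, 5.55 and 5.89 in transgenic hearts, against 3.47, 3.17 and 3.28 in wild type hearts (2.29 ± 0.16, adjusted p = 0.023). For both genes every transgenic array lay well above every wild type array. Per1 read 6.79, 6.89 and 6.83 in transgenic hearts, against 4.36, 4.72 and 5.21 in wild type hearts (2.07 ± 0.21, adjusted p = 0.0428). Its transgenic arrays were nearly level, and most of its spread lay among the wild type arrays. Nr1d2, which encodes the Arntl repressor REV-ERB-beta, read 7.10, 6.83 and 7.0 in transgenic hearts, against 5.71, 5.62 and 5.40 in wild type hearts (1.40 ± 0.12, adjusted p = 0.0295), and a second, dim probe set of this gene differed by 0.02. Cry2 read 6.10, 5.97 and 6.24 in transgenic hearts, against 5.51, 5.35 and 5.22 in wild type hearts and did not pass although its groups stood apart (0.74 ± 0.12, adjusted p = 0.0873). Cry1 overlapped between the groups (−0.18 ± 0.16). Of 7 measured repressor genes 5 rose and 2 did not pass, with a median difference of 2.07.

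Among the clock outputs, the PAR bZIP factor genes Tef and Hlf rose and the gene of their competitor at the D-box, Nfil3, fell. Tef read 6.63, 7.03 and 6.95 in transgenic hearts, against 5.50, 5.27 and 5.60 in wild type hearts (1.42 ± 0.15, adjusted p = 0.0429). Hlf read 5.76, 5.80 and 6.18 in transgenic hearts, against 4.48, 4.60 and 4.52 in wild type hearts (1.38 ± 0.13, adjusted p = 0.038). Nfil3 was nearly level across the transgenic arrays, at 2.98, 3.02 and 3.02 in transgenic hearts, against 5.24, 4.84 and 4.59 in wild type hearts (−1.89 ± 0.17, adjusted p = 0.0295). These 3 genes encode factors that bind the same DNA element, TEF and HLF as activators and NFIL3 as a repressor. Usp2, a deubiquitinase gene, read 8.57, 8.52 and 8.66 in transgenic hearts, against 7.49, 7.61 and 7.58 in wild type hearts (1.02 ± 0.09, adjusted p = 0.0295). Tspan4, a tetraspanin gene that cycles in many mouse organs, read 6.67, 6.96 and 6.97 in transgenic hearts, against 5.57, 5.64 and 5.80 in wild type hearts (1.20 ± 0.12, adjusted p = 0.0428). Wee1, the kinase that holds back entry into mitosis, read 5.41, 6.09 and 6.03 in transgenic hearts, against 4.31, 3.84 and 3.74 in wild type hearts and did not pass (1.88 ± 0.23, adjusted p = 0.0575). Bhlhe41, the gene of the repressor DEC2, shown here after its values were seen, differed by 1.11 ± 0.27, adjusted p = 0.188. Of 15 measured outputs, Ciart included, 5 rose, 1 fell and 9 did not pass, and groups stood apart for 9 higher and 3 lower. Among 10 genes for kinases, ubiquitin ligases and modulators of the clock 0 passed (3 at an unadjusted p under 0.05). Groups stood apart for 4 lower and 0 higher, beside the background of 11.5% and 10.7%. Their differences ran from −0.42 to 0.105, with a median of 0.00.

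**Figure D2:**
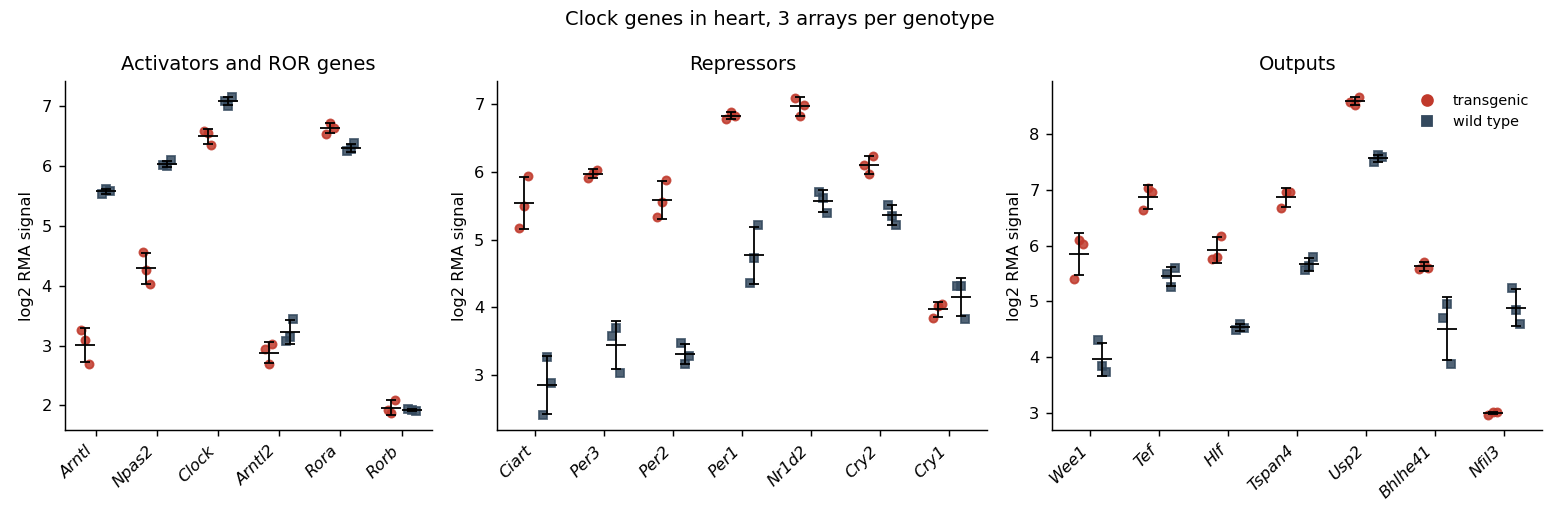
Log2 RMA signal (y axis) of clock activators, repressors and outputs in 3 transgenic (red circles, left of each pair) and 3 wild type (dark squares) hearts, with the mean and SD as lines; each panel has its own axis. Arntl, Npas2 and Nfil3 lie lower and the period genes, Ciart, Nr1d2, Tef, Hlf, Tspan4 and Usp2 higher in transgenic hearts without overlap, while Cry1 and Rorb overlap.

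Outside the clock lists 10 named genes rose. The largest difference was that of Tlcd4, at 5.15, 4.93 and 5.29 in transgenic hearts, against 2.33, 3.05 and 2.41 in wild type hearts (5.77-fold, 2.53 ± 0.21, adjusted p = 0.0295). Armh4 read 5.89, 5.89 and 6.24 in transgenic hearts, against 4.14, 3.85 and 3.86 in wild type hearts (2.06 ± 0.14, adjusted p = 0.023). For both genes the lowest transgenic array lay well above the highest wild type array, but the wild type values of Tlcd4 lie near the median level, so its exact fold is uncertain. Nmrk2, a muscle-enriched nicotinamide riboside kinase gene of NAD synthesis, read 5.93, 5.87 and 6.31 in transgenic hearts, against 4.15, 4.47 and 4.20 in wild type hearts (1.76 ± 0.15, adjusted p = 0.0295). Of 17 measured genes of NAD metabolism it was the 1 that passed, and the median difference of that list was 0.00. Nnt, the mitochondrial nicotinamide nucleotide transhydrogenase gene, stood lower without passing (−0.37 ± 0.08, adjusted p = 0.168). Fbxo36, an F-box protein gene, read 6.18, 5.94 and 6.38 in transgenic hearts, against 4.57, 4.55 and 4.45 in wild type hearts (1.65 ± 0.13, adjusted p = 0.0295).

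Myl1, which encodes the alkali light chains of fast skeletal myosin, read 6.05, 6.26 and 5.72 in transgenic hearts, against 4.43, 4.41 and 4.62 in wild type hearts (1.52 ± 0.16, adjusted p = 0.0428). Of 19 measured markers of skeletal muscle 0 passed (3 before adjustment). Groups stood apart for 2 higher and 3 lower, beside the background of 10.7% and 11.5%. Means lay under the median level for 14, the fast myosin heavy chain genes Myh1, Myh2 and Myh4 among them. Heart muscle also expresses Ckm, which makes most of the summed level of the 19. Without it the other 18 summed to 7.06 to 7.18 in transgenic and 6.86 to 7.10 in wild type hearts (log2 of the sum of linear signals), which overlap. Ano5, an anoctamin gene mutated in forms of human muscular dystrophy, read 3.17, 3.27 and 3.22 in transgenic hearts, against 2.01, 2.13 and 2.17 in wild type hearts (1.11 ± 0.09, adjusted p = 0.0295); the wild type values lie under the median level, so its exact fold is not read. Rhobtb1 was the brightest of the 10 at 7.86, 8.06 and 8.27 in transgenic hearts, against 6.85, 6.62 and 6.74 in wild type hearts (1.33 ± 0.13, adjusted p = 0.0423). Atp6v0e2, a subunit gene of the vacuolar proton pump, read 5.84, 5.77 and 6.10 in transgenic hearts, against 4.66, 4.71 and 4.58 in wild type hearts (1.25 ± 0.11, adjusted p = 0.0316). Coq10b, whose product binds coenzyme Q in mitochondria, read 5.11, 5.36 and 5.38 in transgenic hearts, against 4.05, 4.27 and 4.04 in wild type hearts (1.16 ± 0.12, adjusted p = 0.0428), and a second, dim probe set of it differed by 0.14. Cstad read 3.94, 4.03 and 3.69 in transgenic hearts, against 2.71, 2.55 and 2.72 in wild type hearts (1.23 ± 0.12, adjusted p = 0.038). Its wild type values lie near the median level, so its exact fold is uncertain.

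Outside the clock lists 9 named genes fell. Fam124b read 2.07, 2.07 and 2.41 in transgenic hearts, against 4.12, 4.12 and 3.66 in wild type hearts (−1.78 ± 0.17, adjusted p = 0.0368), with transgenic values under the median level. Mfsd4b1 read 3.32, 3.38 and 3.29 in transgenic hearts, against 4.64, 4.72 and 4.96 in wild type hearts (−1.45 ± 0.11, adjusted p = 0.0282). The transgenic arrays for this gene were nearly level. Plxnb1, a receptor gene for semaphorins, read 4.26, 4.12 and 4.11 in transgenic hearts, against 5.68, 5.37 and 5.75 in wild type hearts (−1.44 ± 0.13, adjusted p = 0.0295), and a second, dim probe set of it differed by 0.05. Rbpms2, the gene of an RNA-binding protein found in heart and smooth muscle, read 6.33, 6.55 and 6.43 in transgenic hearts, against 7.55, 7.50 and 7.59 in wild type hearts (−1.11 ± 0.10, adjusted p = 0.0295). Grk5, a kinase gene that desensitises G protein-coupled receptors in heart muscle, read 5.08, 5.42 and 5.31 in transgenic hearts, against 6.38, 6.27 and 6.43 in wild type hearts (−1.09 ± 0.12, adjusted p = 0.0475). Both genes had a narrow spread in each group.

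Mecr, an enzyme gene of mitochondrial fatty acid synthesis, read 4.64, 4.51 and 4.41 in transgenic hearts, against 5.51, 5.75 and 5.50 in wild type hearts (−1.07 ± 0.11, adjusted p = 0.0475). D2hgdh, the mitochondrial dehydrogenase gene for D-2-hydroxyglutarate, read 4.36, 4.29 and 4.34 in transgenic hearts, against 5.11, 5.26 and 5.34 in wild type hearts (−0.91 ± 0.10, adjusted p = 0.0475). Slc41a3, a magnesium transporter gene, was the brightest of the genes that fell, at 8.16, 8.17 and 8.04 in transgenic hearts, against 8.99, 8.98 and 9.14 in wild type hearts (−0.91 ± 0.09, adjusted p = 0.043). Btbd2 read 6.00, 5.95 and 5.90 in transgenic hearts, against 6.85, 6.86 and 6.80 in wild type hearts, the smallest fold among the named genes (1.85-fold, −0.89 ± 0.08, adjusted p = 0.0352). Of the 5 probe sets that passed without a single symbol 2 carry several symbols and 3 none. One of those with several symbols had the largest difference on the arrays, at 7.97, 7.77 and 7.99 in transgenic hearts, against 4.33, 4.43 and 4.19 in wild type hearts (12.1-fold, adjusted p = 5.46e-04). It alone passed in each of the 6 fits that left out 1 array.

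The 10 genes next in order of p missed the threshold narrowly, and 7 of them lay lower in transgenic hearts. Ypel2 differed by −1.21 ± 0.13, adjusted p = 0.0513 and Adhfe1, a hydroxyacid-oxoacid transhydrogenase gene, by −1.23 ± 0.13, adjusted p = 0.0513. Lama5, a laminin chain gene of basement membranes, differed by −0.89 ± 0.10 and Ntn1, the gene of the guidance protein netrin, by −1.07 ± 0.12. Agpat3, an acyltransferase gene of phospholipid synthesis, differed by −0.84 ± 0.09, Slc12a7, a potassium-chloride cotransporter gene, by −0.79 ± 0.09, and Mfsd4b3-ps by −1.42 ± 0.16. The 3 that lay higher were Hyal3, a hyaluronidase family gene (1.63 ± 0.18), Frem2, an extracellular matrix protein gene (0.92 ± 0.10), and Nppa (1.36 ± 0.16, adjusted p = 0.052). All 10 passed when only probe sets with 1 symbol were tested (adjusted p = 0.00297 to 0.0051).

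The natriuretic peptide genes lay on opposite sides. Nppa, the gene of atrial natriuretic peptide, which is made mainly in atria and returns to the ventricle under load, read 10.81, 11.20 and 11.17 in transgenic hearts, against 9.47, 9.88 and 9.74 in wild type hearts (2.57-fold, 1.36 ± 0.16, adjusted p = 0.052). Nppb, the gene of brain natriuretic peptide, read 7.74, 7.68 and 7.38 in transgenic hearts, against 8.33, 8.18 and 7.87 in wild type hearts and lay the other way (−0.52 ± 0.16, adjusted p = 0.262). Each of the 2 had groups that stood apart, and neither passed. Other members of the stress list lay on both sides. Mt2, a metallothionein gene shown here after its values were seen, read 8.65, 8.95 and 9.31 in transgenic hearts, against 6.81, 7.30 and 8.53 in wild type hearts and did not pass (1.42 ± 0.43, adjusted p = 0.268). Acta1, skeletal actin, read 7.26, 7.08 and 7.40 in transgenic hearts, against 7.93, 8.83 and 8.51 in wild type hearts (−1.18 ± 0.23, adjusted p = 0.125), and Myh7, the slow myosin heavy chain, read 6.15, 6.45 and 6.62 in transgenic hearts, against 7.06, 7.36 and 7.20 in wild type hearts (−0.80 ± 0.15, adjusted p = 0.114). Ccn1, a matricellular protein gene induced by stretch, differed by −1.05 ± 0.14, adjusted p = 0.067. Of the 19 measured genes of the natriuretic and stress list 0 passed (10 before adjustment). Groups stood apart for 5 higher and 6 lower, beside the background of 10.7% and 11.5%. The median difference was −0.01.

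Atrial markers bear on Nppa, since the labels do not say which chambers the RNA came from. Of 15 measured 0 passed (4 before adjustment). Groups stood apart for 4 higher (Nppa, Kcnj3, Mybphl and Tbx5) and 0 lower, beside the background of 10.7% and 11.5%. The median difference of the 15 was 0.25. Their summed level was 11.50 to 12.11 in transgenic and 10.70 to 11.19 in wild type hearts, but Nppa itself makes most of that sum: without it the other 14 summed to 10.11 to 11.01 in transgenic and 9.90 to 10.44 in wild type hearts, which overlap. Sln, Nr2f1 and Bmp10 had means under the median level. The atrial myosin light chain genes Myl4 and Myl7, shown here after their values were seen, differed more between array numbers than between genotypes. Myl4 read 6.57, 9.70 and 8.92 in transgenic hearts, against 6.63, 8.60 and 8.45 in wild type hearts (difference 0.50 ± 0.89). Myl7 read 4.53, 7.42 and 6.84 in transgenic hearts, against 4.52, 6.83 and 6.69 in wild type hearts (difference 0.25 ± 0.91). In each genotype the array numbered 1 was the low one for both genes.

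Nppa too was lowest in the array numbered 1 of each genotype. Its difference was 1.34 between the 2 arrays numbered 1 and 1.37 among the other 4 arrays. Kcnj3, a channel subunit gene of the acetylcholine-activated potassium current of the atrium, read 7.61, 7.85 and 7.75 in transgenic hearts, against 6.89, 7.02 and 6.79 in wild type hearts (0.84 ± 0.11, adjusted p = 0.0624), with differences of 0.72 and 0.90 in the same order. Mybphl, a myosin-binding protein gene expressed in atria and conduction tissue, read 3.77, 4.59 and 3.96 in transgenic hearts, against 2.23, 3.24 and 3.06 in wild type hearts (1.27 ± 0.32, adjusted p = 0.199). Tbx5, a transcription factor gene of atria and left ventricle, differed by 0.42 ± 0.10, adjusted p = 0.174. Of 10 ventricular markers 0 passed (2 before adjustment). Groups stood apart for 3 lower and 0 higher, beside the background of 11.5% and 10.7%. Among the 3 were Hey2, a transcription factor gene of ventricular muscle (−0.63 ± 0.09, adjusted p = 0.0793), and Kcne1, a potassium channel subunit gene (−0.79 ± 0.22, adjusted p = 0.239). The part of chamber composition in these values was not tested.

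**Figure D3:**
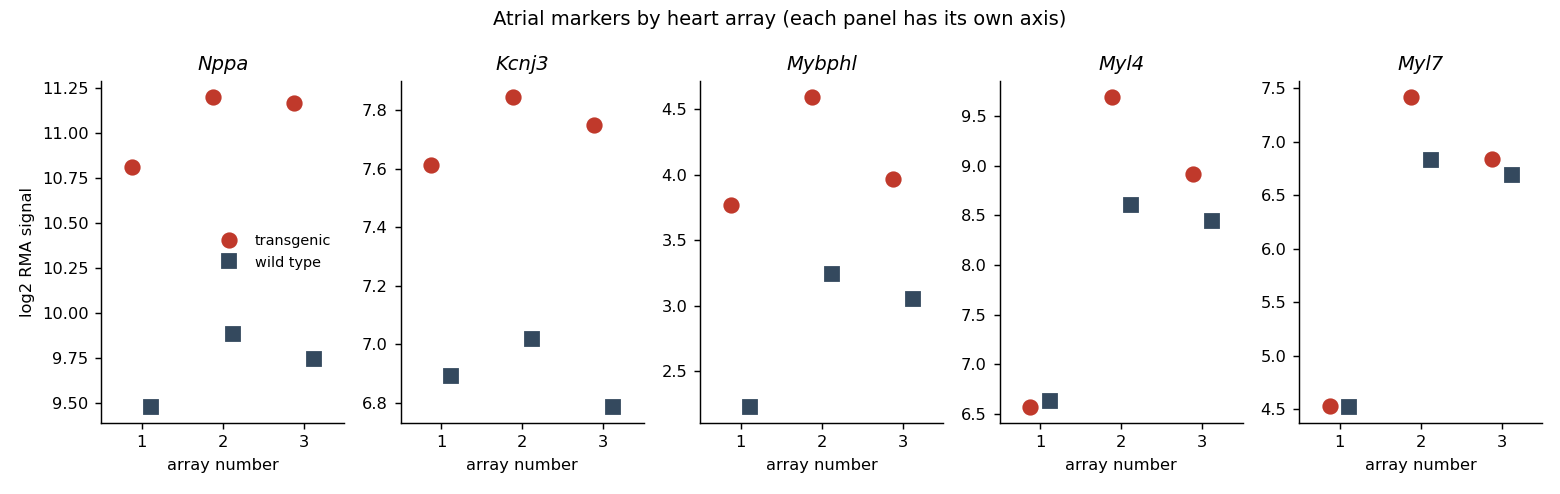
Log2 RMA signal (y axis, 1 scale per panel) of 5 atrial markers by array number (x axis) in transgenic (red circles) and wild type (dark squares) hearts. Nppa, Kcnj3 and Mybphl lie higher in transgenic hearts at every array number, whereas Myl4 and Myl7 are low in the array numbered 1 of both genotypes.

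Contractile genes lay on both sides. Of 30 measured sarcomere genes 1 rose (Myl1), 0 fell and 29 did not pass, with a median difference of 0.03. Groups stood apart for 5 higher and 7 lower, beside the background of 10.7% and 11.5%. Tcap, the gene of the Z-disc protein telethonin, read 9.38, 9.61 and 9.46 in transgenic hearts, against 8.17, 7.68 and 8.30 in wild type hearts and did not pass (1.43 ± 0.18, adjusted p = 0.0575). Myh7b, a slow-type myosin heavy chain gene, read 5.13, 4.99 and 5.12 in transgenic hearts, against 6.49, 6.15 and 5.71 in wild type hearts (−1.04 ± 0.20, adjusted p = 0.117). Both stood apart without overlap and in opposite directions. Tnnc1, the endogenous cardiac troponin C gene from whose family the sensor domain of TN-XXL derives, averaged 10.59 ± 0.04 in transgenic and 10.78 ± 0.11 in wild type hearts (SD, difference −0.19 ± 0.10, adjusted p = 0.513). Ckm, muscle creatine kinase, differed by −0.26 ± 0.09.

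Genes that move calcium differed by small amounts. Of 29 measured 0 passed (4 before adjustment). Groups stood apart for 4 higher and 9 lower, beside the background of 10.7% and 11.5%. The median was −0.05, and all differences lay between −0.42 and 0.41. Ryr2, the calcium release channel of the sarcoplasmic reticulum, read 10.01, 10.05 and 10.03 in transgenic hearts, against 10.45, 10.39 and 10.38 in wild type hearts. The spread in each group was small beside the gap, and the difference did not pass (−0.38 ± 0.08, adjusted p = 0.146). Cacna1c, the pore of the cardiac L-type channel, differed by −0.18 ± 0.09, Cacnb1, a channel beta subunit gene, by −0.42 ± 0.09 and Slc8a1, the sodium-calcium exchanger, by −0.21 ± 0.11. Atp2a2, the calcium pump of the reticulum, and Pln, its inhibitor, overlapped between the groups (0.04 ± 0.09 and 0.03 ± 0.09), and Casq2, which stores calcium there, differed by 0.17 ± 0.09. Among 14 calcineurin and NFAT genes 0 passed (2 before adjustment). Rcan1, a calcineurin inhibitor gene that NFAT induces, was the widest of them at 7.29, 7.15 and 7.24 in transgenic hearts, against 8.43, 8.43 and 8.07 in wild type hearts (−1.08 ± 0.13, adjusted p = 0.0521), and Nfatc2 differed by 0.22 ± 0.08, adjusted p = 0.356.

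Of 23 measured ion channel genes 0 passed (11 before adjustment), with a median of −0.01. Groups stood apart for 4 higher and 7 lower, beside the background of 10.7% and 11.5%. Kcnip2, the auxiliary subunit of the transient outward potassium current, read 6.97, 6.76 and 6.79 in transgenic hearts, against 7.51, 7.70 and 7.49 in wild type hearts (−0.73 ± 0.11, adjusted p = 0.0793). Abcc9, the sulfonylurea receptor of the ATP-sensitive potassium channel, read 9.17, 9.12 and 9.18 in transgenic hearts, against 9.62, 9.62 and 9.68 in wild type hearts (−0.49 ± 0.08, adjusted p = 0.0982). The widest difference of the list was that of Kcnk1, a potassium leak channel gene, at 3.71, 4.94 and 5.15 in transgenic hearts, against 1.97, 2.20 and 2.59 in wild type hearts (2.35 ± 0.39, adjusted p = 0.095). Its transgenic array 1 lay well below the other transgenic arrays and still above the wild type arrays, whose values average under the median level, so the exact size is not read. At the intercalated disc, where 16 genes were measured and 0 passed (4 before adjustment), Gja1, the gene of connexin 43, read 9.04, 8.94 and 8.59 in transgenic hearts, against 9.56, 9.74 and 9.51 in wild type hearts (−0.74 ± 0.14, adjusted p = 0.119). The desmosomal genes Dsp and Dsg2 differed by 0.27 ± 0.09 and 0.33 ± 0.12, and Ctnna1, an adherens junction gene, by −0.26 ± 0.09.

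In the lists of energy metabolism 0 genes passed, and before adjustment 8 of fatty acid oxidation, 4 of glucose metabolism and 3 of oxidative phosphorylation did. The counts of genes standing apart in these lists are set beside the background of 10.7% higher and 11.5% lower. Of 33 genes of fatty acid oxidation 4 stood apart higher and 8 lower (median −0.06). Mlycd, malonyl-CoA decarboxylase, differed by −1.18 ± 0.16, adjusted p = 0.072, Etfa, an electron transfer flavoprotein subunit gene, by −0.73 ± 0.10, adjusted p = 0.072, Slc27a1, a fatty acid transporter gene, by 0.42 ± 0.08, adjusted p = 0.122 and Acot2, a mitochondrial thioesterase gene, by 0.49 ± 0.10, adjusted p = 0.135. Of 25 genes of glucose metabolism 0 stood apart higher and 6 lower (median −0.03). They included Hk1, hexokinase 1, at 6.66, 6.64 and 6.77 in transgenic hearts, against 7.37, 7.40 and 7.56 in wild type hearts (−0.75 ± 0.10, adjusted p = 0.0624), Gys1, muscle glycogen synthase (−0.48 ± 0.09, adjusted p = 0.117), and Ugp2, which makes the sugar donor for glycogen (−0.56 ± 0.11, adjusted p = 0.128). Of 35 oxidative phosphorylation genes 8 stood apart higher and 1 lower (median 0.08), with Ndufa2 and Ndufs4 of complex I at differences of 0.32 ± 0.09 and 0.29 ± 0.10.

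Genes of heat shock and the unfolded protein response stood apart more often lower than higher. Of 26 measured 0 passed (14 before adjustment). Groups stood apart for 14 lower and 4 higher, beside the background of 11.5% and 10.7%. The median difference was −0.17. Sdf2l1, of a reticulum chaperone complex, read 5.24, 5.10 and 5.03 in transgenic hearts, against 6.34, 5.96 and 6.62 in wild type hearts (−1.18 ± 0.18, adjusted p = 0.0793). Hspa5, the gene of the chaperone BiP, read 9.27, 9.39 and 9.17 in transgenic hearts, against 9.90, 9.86 and 10.01 in wild type hearts (−0.65 ± 0.10, adjusted p = 0.0795), and Xbp1, the transcription factor gene that drives many reticulum genes, differed by −0.64 ± 0.11, adjusted p = 0.101. When only probe sets with 1 symbol were tested, 4 genes of this list fell and 1 rose, beside 1.49% and 1.15% of all genes.

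Of 20 antioxidant genes 0 passed (5 before adjustment), with 3 apart higher and 5 lower. The background for this list and those that follow is 10.7% higher and 11.5% lower. Gpx3, the secreted glutathione peroxidase, read 9.82, 10.13 and 10.03 in transgenic hearts, against 8.75, 9.08 and 8.92 in wild type hearts (1.08 ± 0.13, adjusted p = 0.0556), and Gstm2, a glutathione transferase gene, read 6.68, 6.60 and 6.68 in transgenic hearts, against 7.36, 7.27 and 7.38 in wild type hearts (−0.68 ± 0.09, adjusted p = 0.0609). The pair lay apart in opposite directions. Nqo1 differed by −0.63 ± 0.12, adjusted p = 0.111 and Gpx1 by 0.62 ± 0.14, adjusted p = 0.172. Of 20 genes of mTOR signalling, autophagy and atrophy 0 passed (8 before adjustment), with 6 apart higher and 3 lower. Ddit4l, the gene of an mTOR inhibitor in muscle, read 5.56, 5.27 and 4.79 in transgenic hearts, against 3.66, 3.46 and 2.69 in wild type hearts (1.94 ± 0.30, adjusted p = 0.0813), and Eif4ebp1, a repressor of translation, differed by 0.58 ± 0.08, adjusted p = 0.0759. Of 19 glucocorticoid target genes 1 passed (8 before adjustment), Per1, which rose. Groups stood apart for 7 higher and 1 lower. Arrdc2 differed by 2.21 ± 0.42, adjusted p = 0.118, and Tsc22d3, the gene of the glucocorticoid-induced leucine zipper, which also cycles in many mouse organs, by 0.62 ± 0.14, adjusted p = 0.168, and Nfkbia, the NF-kappaB inhibitor, by 0.71 ± 0.17, adjusted p = 0.184. Of 26 immediate early genes 0 passed (4 before adjustment), with Nr4a1 at 1.33 ± 0.24, adjusted p = 0.107 and Egr1 at −0.64 ± 0.20, adjusted p = 0.271. Of 22 ribosomal protein genes 0 passed (0 before adjustment), and 1 stood apart higher and 2 lower.

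Markers of other cell types of the heart were measured beside these lists. In whole tissue, fewer cells of a type and less RNA per cell cannot be told apart. Of 18 endothelial markers 0 passed (10 before adjustment), 11 stood apart lower and 1 higher, against a background of 11.5% and 10.7%, and 0 had means under the median level. Their summed level was 11.38 to 11.56 in transgenic and 11.70 to 11.76 in wild type hearts, without overlap. Cldn5, a tight junction gene of endothelium, read 6.78, 6.30 and 5.98 in transgenic hearts, against 7.37, 7.18 and 7.41 in wild type hearts (−0.97 ± 0.21, adjusted p = 0.145). Kdr, the main VEGF receptor, read 7.39, 7.26 and 6.98 in transgenic hearts, against 7.91, 7.89 and 7.71 in wild type hearts (−0.63 ± 0.13, adjusted p = 0.141), and Tek, the angiopoietin receptor, read 6.96, 6.91 and 6.77 in transgenic hearts, against 7.34, 7.31 and 7.41 in wild type hearts (−0.48 ± 0.09, adjusted p = 0.122). Sox17, an arterial transcription factor gene, was the 1 that lay higher, at 4.71, 4.74 and 4.75 in transgenic hearts, against 4.20, 4.34 and 4.31 in wild type hearts (0.45 ± 0.09, adjusted p = 0.117). The part of endothelial content in any other difference was not tested.

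Of 24 fibroblast and matrix genes 0 passed (4 before adjustment). Groups stood apart for 1 higher and 4 lower, beside the background of 10.7% and 11.5%. The same shares are the background for the other lists of this paragraph. The summed level was 11.94 to 12.09 in transgenic and 11.99 to 12.06 in wild type hearts. Adam19, a metalloprotease gene of heart development, read 6.03, 5.30 and 5.04 in transgenic hearts, against 7.22, 7.55 and 7.30 in wild type hearts (−1.90 ± 0.26, adjusted p = 0.067), and Spon2, a matrix protein gene, read 3.38, 3.04 and 2.60 in transgenic hearts, against 5.08, 5.12 and 3.79 in wild type hearts (−1.65 ± 0.39, adjusted p = 0.185). These were the widest differences of the list, and the other members lay between −0.37 and 0.44. Of 23 macrophage and leukocyte markers 2 stood apart higher, Itgam (0.35 ± 0.10) and Cd68 (0.37 ± 0.15), and 0 lower. The summed level of that list was 9.81 to 9.95 in transgenic and 9.57 to 9.87 in wild type hearts. Of 23 interferon and antigen presentation genes 0 passed (7 before adjustment), 6 stood apart higher and 0 lower, and the median difference was 0.39. Gm12250, an interferon-inducible GTPase gene, read 3.67, 5.29 and 3.21 in transgenic hearts, against 2.16, 2.60 and 2.06 in wild type hearts (1.79 ± 0.52, adjusted p = 0.246), Ifit3 differed by 0.79 ± 0.24, adjusted p = 0.261, and H2-K1, a class I histocompatibility gene, by 0.76 ± 0.24, adjusted p = 0.274. Transgenic array 2 was the highest of the 6 for each of these 3 genes. Of 13 smooth muscle and pericyte markers 2 stood apart higher, with Acta2 at 0.34 ± 0.09, and 4 lower, and of 14 adipocyte markers 3 stood apart higher, with Plin4 at 0.40 ± 0.11, and 0 lower. Of 11 markers of neurons and Schwann cells, Ncam1, a cell adhesion gene, was the 1 that stood apart (0.69 ± 0.11, adjusted p = 0.0813).

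**Figure D4:**
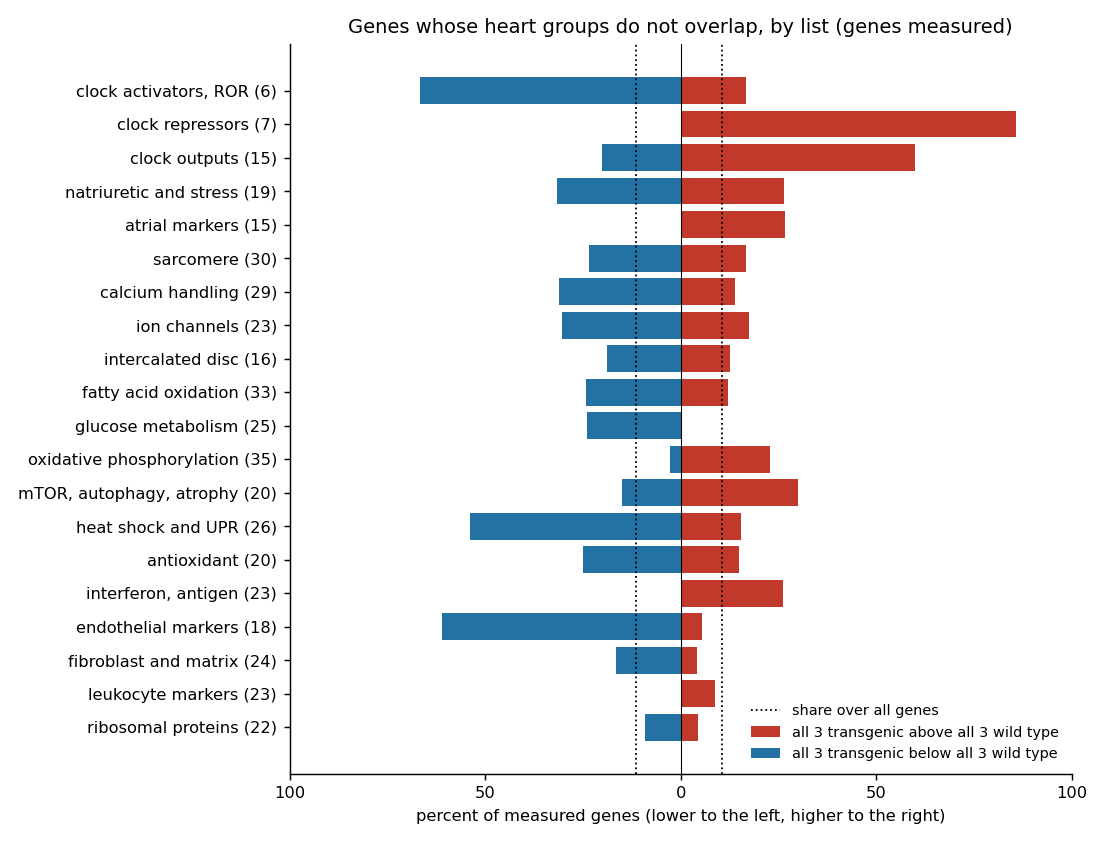
For each gene list (number of genes measured in brackets), bars give the percent of genes whose 3 transgenic arrays all lay above (red, to the right) or all below (blue, to the left) the 3 wild type arrays; dotted lines mark the shares over all 18781 genes, 10.7% and 11.5%. Clock repressors reach 6 of 7 on the right, and clock activators 4 of 6, heat shock and unfolded protein response genes 14 of 26 and endothelial markers 11 of 18 on the left.

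The heart differences were then set beside those of skeletal muscle and hippocampus of the same genotypes, each fitted on its own 6 arrays. Of the 31 named genes 18 also passed in muscle alone, all in the same direction. In that muscle fit limma called 838 of all 35382 probe sets. In hippocampus 0 of the 31 passed, and limma called 0 probe sets of the whole array there (2451 at an unadjusted p under 0.05). Arntl differed by −2.74 ± 0.19 in muscle and −0.35 ± 0.12 in hippocampus. Per2 differed by 2.32 ± 0.19 in muscle and 0.37 ± 0.12 in hippocampus, and Ciart by 2.90 ± 0.32 and 0.87 ± 0.14. In a fit of all 18 arrays, the heart difference was tested against the muscle difference, and 2.55% of all probe sets passed. None of the genes of the activator and repressor lists did: the test gave 0.17 ± 0.24, adjusted p = 0.832 for Arntl, −0.04 ± 0.25, adjusted p = 0.974 for Per2 and 0.49 ± 0.17, adjusted p = 0.18 for Nr1d2.

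Of the 31 named genes 11 differed between heart and muscle by that test. Since these genes were selected on the heart difference, which is 1 term of the test, this number is not read against 2.55%. Tlcd4 differed by −0.17 ± 0.10 in muscle (heart minus muscle 2.70 ± 0.21, adjusted p = 1.01e-05). Armh4 differed by 0.64 ± 0.13 in muscle (heart minus muscle 1.42 ± 0.19, adjusted p = 0.000928). Of the 12 clock genes that passed in heart, Hlf was the 1 that passed this test, and its difference in muscle was 0.16 ± 0.17 (heart minus muscle 1.22 ± 0.19, adjusted p = 0.00286). Rhobtb1 (0.06 ± 0.11 in muscle), Myl1 (0.02 ± 0.11), Atp6v0e2 (0.24 ± 0.13), Ano5 (−0.24 ± 0.14), Plxnb1 (−0.08 ± 0.10), Rbpms2 (−0.21 ± 0.17) and Fam124b (0.68 ± 0.25) were the others whose muscle difference was nearer 0 or of opposite sign. Btbd2 was wider in muscle, at −1.36 ± 0.10. Nppa differed by 0.04 ± 0.16 in muscle (heart minus muscle 1.32 ± 0.21, adjusted p = 0.00307), and Ddit4l lay the other way there, at −1.81 ± 0.19 (heart minus muscle 3.75 ± 0.37, adjusted p = 9.08e-05). Against hippocampus, 0.582% of all probe sets passed, and 27 of the 31 named genes did, a number that for the same reason is not read against that share. The 4 that did not pass were Ciart, Coq10b, D2hgdh and Fam124b.

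**Figure D5:**
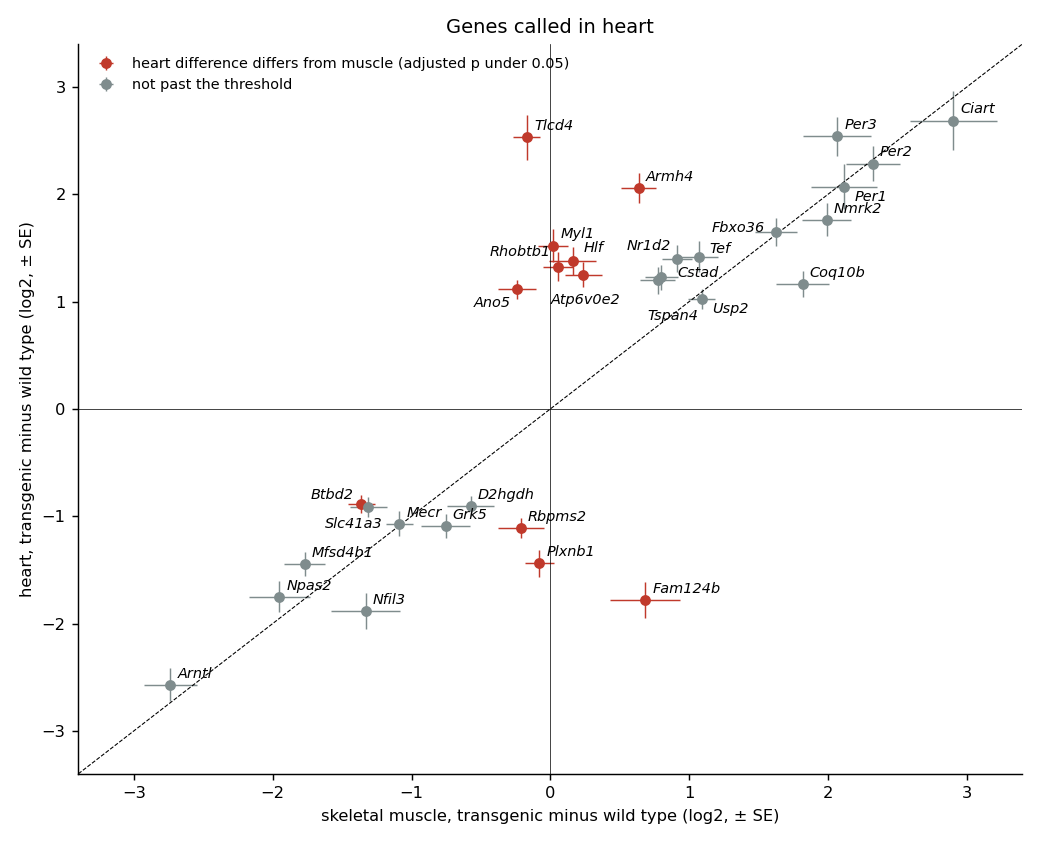
Transgenic minus wild type difference (log2, ± SE) in skeletal muscle (x axis) and heart (y axis) for the 31 named genes that rose or fell in heart; the dashed line marks equal differences. The 11 red genes differed between the tissues by the test over all 18 arrays, Tlcd4 most clearly (2.70), and the core clock genes lie near the line.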

How the data were processed

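Heart muscle RNA of 3 transgenic and 3 wild type arrays was analysed, with skeletal muscle and hippocampus arrays for comparison. The deposited values are log2 signals, 1 per probe set and array, made by RMA in R (version 2.10.0) per the submitters' processing notes. RMA corrects background, normalizes between arrays and summarises probes, which compresses differences of dim probe sets. No chip definition or genome build is named there. Groups came from the sample titles.

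The platform annotation gave 1 symbol to 21153 of 35382 probe sets, several to 1867 and none to 12362. By Entrez ID 21123 matched the RefSeq table, and 0 symbols were updated. The values were fitted as deposited with limma 3.58.1 in R 4.3.3, on the 6 heart arrays with 4 residual degrees of freedom and 2.58 from the prior. Two-sided moderated tests were adjusted by Benjamini-Hochberg over all probe sets, at a threshold of 0.05. Differences between tissues were tested as interactions in a fit of all 18 arrays. Genes with several probe sets were taken from the brightest in heart, or from one that passed. Promoter windows come from RefSeq (GRCm38.p6).

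Named were all genes that passed, the next 10 by p, all activator and repressor genes of the clock, up to 4 members of each other list by p and a fixed set of heart genes; Myl4, Myl7, Bhlhe41 and Mt2 were added after their values were seen. Of 648 genes in 34 lists 581 were measured. The comparison and the lists were chosen with earlier results of these data known. Deviations from the group means correlated at 0.021, 0.040 and 0.014 between transgenic and wild type arrays of the same number. Between arrays of unlike number the correlations ran from −0.024 to 0.002. These values are all small, and whether array numbers pair the arrays is not settled by them. The main fit used no pairing. Alternatives were other arrays in the fit, a replicate block, leaving out dim or unnamed probe sets, centring, quantile normalization, an intensity trend, array weights, a looser threshold and each array left out. On simulated data for this heart comparison with 35382 probe sets, the fit recovered 3, 16, 30 and 42 of 50 probe sets changed by 0.5, 1, 1.5 and 2 log2 units, with 7 false calls. The simulated noise was independent and normal, with each probe set's SD taken from these arrays, and only the chosen probe sets changed. Recovery in the real data can therefore differ. The number of arrays limits the precision.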

Additional observations from a re-analysis of the deposited data

Results flagged for a closer look

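The following genes were picked out because their genotype difference in heart differed from that in another tissue by the interaction test over all 18 arrays (limma, adjusted p under 0.05). Only genes named above were looked at, 31 that passed in heart and 99 that did not. Many of them were named for a small p in heart, and the heart difference is 1 term of the test. Their number is therefore not read against the 2.55% of all probe sets that differed between heart and muscle. Values are the heart difference minus the other tissue's difference, on the log2 scale. Against skeletal muscle, where adjusted p ran from 1.01e-05 (Tlcd4 and Fhl2) to 0.0494 (Ncam1), the value was positive for 16 genes: Ddit4l 3.75, Tlcd4 2.70, Kcnk1 1.85, Myl1 1.50, Armh4 1.42, Ano5 1.35, Nppa 1.32, Mybphl 1.30, Rhobtb1 1.27, Hlf 1.22, Atp6v0e2 1.01, Pax7 0.79, Slc27a1 0.77, Adhfe1 0.77, Ncam1 0.70 and Btbd2 0.47. For Adhfe1, Pax7 and Btbd2 the positive value stands beside a more negative difference in muscle than in heart. It was negative for 19 genes: Fam124b −2.46, Fhl2 −2.09, Egr1 −1.67, Adam19 −1.59, Plxnb1 −1.36, Myh7 −1.08, Myh7b −1.07, Ugp2 −0.94, Rbpms2 −0.89, Hk1 −0.82, Gja1 −0.79, Gys1 −0.68, Nfatc2 −0.67, Xbp1 −0.66, Kcnip2 −0.63, Ctnna1 −0.54, Abcc9 −0.54, Cacna1c −0.48 and Cacnb1 −0.46. For Nfatc2 (0.22 in heart, 0.88 in muscle) and Fhl2 (−0.21 in heart, 1.88 in muscle) the negative value stands beside a larger positive difference in muscle. Egr1, Cacna1c and Ctnna1 differed by −0.64, −0.18 and −0.26 in heart. The larger part of their values therefore also comes from a positive difference in muscle.

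Against hippocampus the test was read for the genes that passed in heart, and adjusted p ran from 8.67e-05 (Tlcd4) to 0.0414 (Tspan4). The value was positive for 17 genes: Tlcd4 2.55, Per3 2.44, Armh4 2.13, Per2 1.92, Nmrk2 1.74, Per1 1.65, Myl1 1.60, Tef 1.53, Rhobtb1 1.37, Fbxo36 1.34, Hlf 1.31, Atp6v0e2 1.20, Nr1d2 1.07, Cstad 1.02, Ano5 0.86, Tspan4 0.79 and Usp2 0.76. It was negative for 10 genes: Arntl −2.22, Npas2 −1.75, Nfil3 −1.65, Mfsd4b1 −1.50, Plxnb1 −1.48, Grk5 −1.11, Rbpms2 −1.08, Mecr −1.01, Slc41a3 −0.84 and Btbd2 −0.70. In these groups of 3 no single array was tested as an outlier, and counts with 1 array left out are given below.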

How the results depend on the processing

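The number of calls depended on the setting, the direction of the called genes did not. The count of 36 (21 higher, 15 lower) became 1128 (556, 572) with all 18 arrays in the fit, 447 (214, 233) with heart and muscle arrays, 272 (123, 149) without the dimmer probe sets, 521 (224, 297) with only 1-symbol probe sets, 289 (131, 158) with an intensity trend and robust prior, and 271 (122, 149) at an adjusted p under 0.10. Each of these kept every called probe set it tested. Median centring gave 43, quantile normalization 37 and array weights 37. With 1 array left out limma called 1 to 2 in all, 1 to 2 higher and 0 to 1 lower. With the replicate number as a block it called 0 (0 higher, 0 lower), with a smallest adjusted p of 0.103 and 4080 at an unadjusted p under 0.05, against 4252 without the block. These settings were chosen after seeing the data: without both arrays numbered 1 limma called 0 (0 higher, 0 lower; 3498 unadjusted), and with those arrays as a block of 2 levels 1 (1 higher, 0 lower). Fewer residual degrees of freedom come with each of these fits.

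The 903 probe sets that differed between heart and muscle became 401 with only those tissues in the fit, 40 with a replicate block and 649 to 807 with 1 array left out. The 206 between heart and hippocampus became 126, 0 and 85 to 177 in the same order, and 339 without the dimmer probe sets.

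Over the 31 called genes, 183 of 186 values with 1 array left out no longer passed and 0 changed sign; over other settings 94 of 341 no longer passed and 0 changed sign. Of the 99 genes named without passing, these near 0 or of wide spread changed sign: Rorb (0.04) became −0.0298 without transgenic array 3, Actc1 (0.03) became −0.0137 with quantile normalization and −0.0224 without transgenic array 2, Pln (0.03) became −0.000436 without wild type array 3 and −0.00613 without transgenic array 2. Myl4 (0.50) became −0.13 without wild type array 1 and −0.15 without transgenic array 2, and Myl7 (0.25) became −0.50, −0.33 and −0.0378 without wild type array 1, transgenic array 2 and transgenic array 3. Their ranges with 1 array left out were −0.0298 to 0.084 (Rorb), −0.0224 to 0.0595 (Actc1), −0.00613 to 0.0867 (Pln), −0.15 to 1.42 (Myl4) and −0.50 to 1.12 (Myl7). The cause was not tested.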

Other observations

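Of the 31 named genes that passed, 7 (22.6%) lie on chromosome 1 (Coq10b, D2hgdh, Fam124b, Fbxo36, Myl1, Npas2 and Per2), the chromosome with the most of them, picked after its count was seen, against 5.96% of the 21123 probe sets with 1 symbol and a chromosome in the RefSeq gene table. Among the 521 that passed when only 1-symbol probe sets were tested, 33 (6.33%) lie on chromosome 1.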
